A study of Homo sapiens with 4 samples.

Results

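The E2F transcription factors and the retinoblastoma (RB) pocket proteins were described in the Jurkat line, an established line of human leukemic T cells. The members were taken by gene name, E2F1 to E2F8 with RB1 and RBL1, which gave 10 of the 50868 genes in the deposited tables. Wild-type Jurkat cells were treated for 24 h with DMSO, the solvent control, with 0.5 μM JQ1, with DMSO and 150 ng/ml PHA, or with 0.5 μM JQ1 and 150 ng/ml PHA. JQ1 is an inhibitor of the bromodomain and extraterminal (BET) proteins, readers of acetylated histones, and PHA is a lectin from plants that stimulates T cells. Each of these 4 conditions has 1 RNA-seq library, so no difference has a replicate check, no test between conditions was made and no p-value is given. Jurkat is a single leukemia line, and the members were measured in no other cells here.

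E2F proteins bind promoters of genes for DNA synthesis and cell-cycle entry, mostly as dimers with a DP partner. E2F1, E2F2 and E2F3 are classed as activators, and E2F4 to E2F8 as repressors. RB1 binds mainly the activators and RBL1 (p107) binds E2F4 and E2F5, until cyclin-dependent kinases phosphorylate the pocket proteins. E2F6 represses without a pocket protein, and E2F7 and E2F8, the atypical E2Fs, bind DNA without a DP partner.

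Several E2F family genes carry E2F motifs in their own promoters, and those of the members in which such motifs were found are shown here, together with the other start of E2F3, with the motifs in capitals. The 150 bases before the start of transcription were taken from RefSeq promoter windows on GRCh38.p14, 5′ to 3′ on the strand of the gene. The letters TTTCCCGC, TTTCGCGC, TTTGCCGC and TTTGGCGC were searched on both strands. Of 35116 such windows of all genes, 632 (1.8%) held at least 1 of these motifs and 28 (0.0797%) held at least 2. E2F1 (chr20:33686386-33686535, minus strand) and RBL1 (chr20:37095998-37096147, minus strand) each held 2, and E2F2 (chr1:23531234-23531383, minus strand) held 1.
E2F1: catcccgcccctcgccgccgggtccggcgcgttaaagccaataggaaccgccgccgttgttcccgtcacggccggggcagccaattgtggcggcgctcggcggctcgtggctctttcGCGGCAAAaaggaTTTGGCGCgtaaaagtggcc
RBL1: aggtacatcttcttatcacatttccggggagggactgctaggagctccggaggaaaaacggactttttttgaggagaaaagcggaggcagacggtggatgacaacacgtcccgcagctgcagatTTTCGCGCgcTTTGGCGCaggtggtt
E2F2: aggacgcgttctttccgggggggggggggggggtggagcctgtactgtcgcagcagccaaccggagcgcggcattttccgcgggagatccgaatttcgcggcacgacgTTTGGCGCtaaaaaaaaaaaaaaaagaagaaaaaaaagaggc

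E2F3, the member with the widest range over the libraries, has 2 listed starts, from which E2F3a and E2F3b are made. The window before the first start (chr6:20401729-20401878, plus strand) held 1 motif, 53 bases before the start, and the window before the second (chr6:20403464-20403613, plus strand) held none. The deposited values are per gene, so reads from either start were counted together.
E2F3, first start: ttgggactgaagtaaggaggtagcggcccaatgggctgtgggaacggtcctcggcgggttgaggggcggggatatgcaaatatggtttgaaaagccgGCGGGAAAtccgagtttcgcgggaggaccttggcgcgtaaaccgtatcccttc
E2F3, second start: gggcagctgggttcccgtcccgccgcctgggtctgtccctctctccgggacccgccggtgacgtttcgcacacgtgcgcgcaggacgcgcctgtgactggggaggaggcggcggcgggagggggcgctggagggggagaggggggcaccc

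The windows of E2F4, E2F6 and E2F7 held no such motif, and windows were used for 7 of the 10 members. A match of letters is a description of the window, and no factor binding was measured here.

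A count and an FPKM value were deposited for each gene. The count is the number of reads on the gene, and FPKM is that count scaled to the length of the gene and to the total count of the library. Total counts lay between 18620954 and 19685401 per library. HEXIM1, which BET inhibitors are known to raise, had 36.2 and 34.6 FPKM in the DMSO and DMSO + PHA libraries and 109 and 104 FPKM in the JQ1 and JQ1 + PHA libraries. All 8 T-cell markers examined (the CD3 chains, CD2, CD5, CD7, CD28 and LCK) had over 3 counts in every library, while their summed FPKM was 306 and 337 without JQ1 against 146 and 164 with it. Of the markers of other cells, 1 of 4 B-cell (CD79A), 0 of 4 myeloid, 0 of 3 erythroid and 2 of 3 epithelial or fibroblast genes (KRT18 and COL1A1) did so. Summed FPKM of the B-cell markers was 1.01 to 7.56, and that of the myeloid, erythroid and epithelial or fibroblast markers was at most 0.707. CD79A had 343 and 304 counts without JQ1 and 51 and 46 with it, whereas MS4A1, which marks B cells, had 0 to 2 counts per library. The part of these marker differences in the results on the E2F and RB genes was not tested. In bulk RNA, fewer cells of a type or phase and less RNA per cell cannot be told apart.

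The members differed widely in level (the plot of FPKM by gene). RB1 was highest in every library, with 64.7 to 124 FPKM, above 96.9% to 98.8% of the 11503 genes with a mean of at least 1 FPKM, the filter used here. E2F1 came next in every library, with 16.1 to 18.8 FPKM, and E2F6 had the lowest FPKM in every library, 2.03 to 2.82. Neighbours in the order did not always differ beyond counting error. In the DMSO library, E2F7 (9.53 FPKM) was not above E2F2 (9.46 FPKM), E2F2 was not above E2F8 (9.11 FPKM), and E2F5 (3.46 FPKM) was not above E2F3 (3.38 FPKM). In the JQ1 library, E2F1 (17.5 FPKM) was not above RBL1 (16.4 FPKM), and E2F5, E2F3 and E2F6 (2.23, 2.22 and 2.03 FPKM) each overlapped their neighbour. In the DMSO + PHA library, every member exceeded the next beyond counting error. E2F3 was in place 9 of the 10 members in the DMSO and JQ1 libraries and in place 8 in the DMSO + PHA library, but in place 4 in the JQ1 + PHA library, where it was not above E2F7 (9.41 against 9.03 FPKM). In that library E2F2 (7.46 FPKM) was not above E2F8 (6.98 FPKM) either. The order depends on the gene lengths that the authors used. Those implied by count and FPKM exceeded the merged exon bases of GENCODE 44 for 9 of the 10 members. For RB1 the gene models differ in extent, as the gene ends at 48481986 in the deposited tables and at 48599436 in GENCODE 44. Its exon bases may therefore include some that the deposited count did not cover. In bases, the excess was smallest for E2F2 (5741 against 5462) and largest for E2F3 (12634 against 5190). As a ratio, it was largest for E2F4 (9300 against 3596 bases). Per exon base of GENCODE, E2F4 moved from place 7 to place 2 in the DMSO library and E2F3 from place 4 to place 2 in the JQ1 + PHA library. Ratios of one gene between libraries do not depend on its length.

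**Figure D1:**
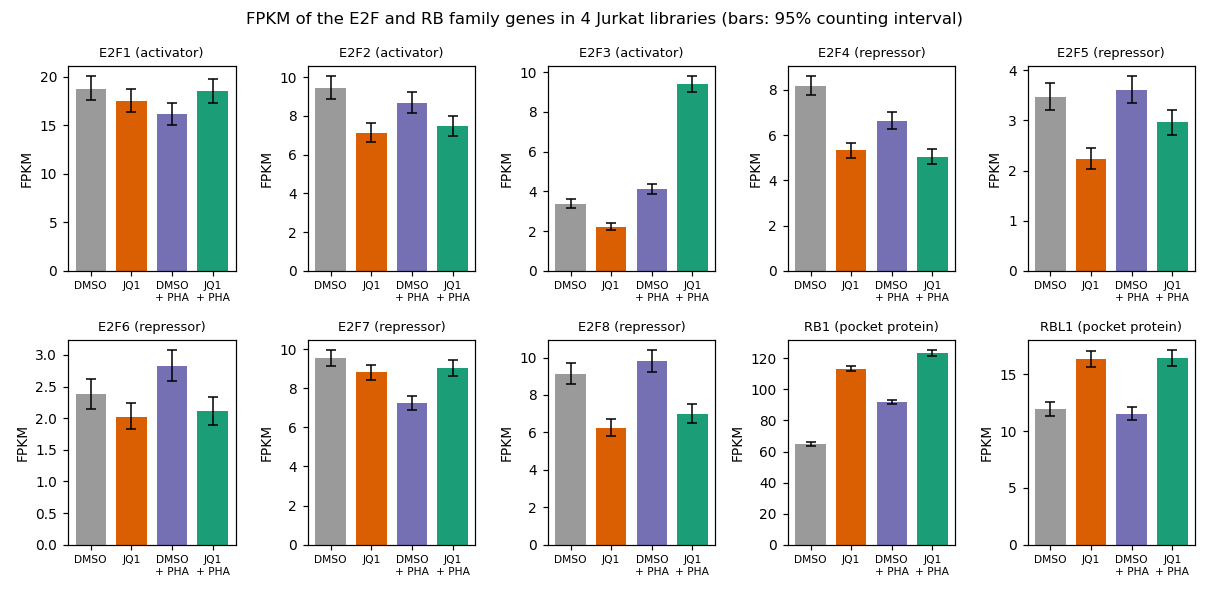
FPKM (vertical axes, each from 0) of the 10 members in the 4 libraries, with bars for the value of the library and lines for its 95% counting interval. E2F3 stands at 9.41 FPKM with JQ1 + PHA against 2.22 to 4.10 FPKM in the other libraries, and RB1 and RBL1 stand higher in both JQ1 libraries than in the DMSO libraries.

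Each member was then compared in 4 pairs of libraries. Ratios are log2 ratios of the share of counts, with the bounds of the exact (Clopper-Pearson) 95% interval in parentheses, which cover counting error only, and "beyond counting error" means that the interval excludes 0. A 2-fold difference was called on log2(FPKM + 0.1). All 10 members passed the filter. Gene positions are those of the deposited tables, on GRCh38. Where 4 values of a gene follow each other, they are those of the DMSO, JQ1, DMSO + PHA and JQ1 + PHA libraries in this order. The 4 comparisons share libraries in pairs and are not independent.

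Among the activators, E2F1 varied little. E2F1 (ENSG00000101412, chromosome 20, 33675683 to 33686404, minus strand) had 884 (DMSO), 863 (JQ1), 794 (DMSO + PHA) and 863 (JQ1 + PHA) counts. These are 18.8, 17.5, 16.1 and 18.5 FPKM, the DMSO + PHA library being the lowest. The JQ1 ratio of E2F1 was -0.10 (-0.24, 0.04) without PHA and 0.20 (0.06, 0.34) with PHA, and the PHA ratio in DMSO-treated cells was -0.22 (-0.36, -0.08).

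E2F2 was lower with JQ1 whether or not PHA was present. Its counts (ENSG00000007968, chromosome 1, 23506430 to 23531220, minus strand) were 1022 (DMSO), 806 (JQ1), 981 (DMSO + PHA) and 798 (JQ1 + PHA), or 9.46, 7.13, 8.68 and 7.46 FPKM. Both JQ1 libraries lay below both DMSO libraries. The JQ1 ratio was -0.41 (-0.54, -0.27) without PHA and -0.22 (-0.35, -0.08) with PHA, while the PHA ratios of E2F2 included 0 in DMSO-treated and in JQ1-treated cells.

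E2F3 was lower with JQ1 alone and higher with JQ1 and PHA together. Counts on E2F3 (ENSG00000112242, chromosome 6, 20401906 to 20493715, plus strand) were 803 (DMSO), 553 (JQ1), 1020 (DMSO + PHA) and 2213 (JQ1 + PHA), or 3.38, 2.22, 4.10 and 9.41 FPKM. The JQ1 + PHA library stood apart from the other libraries, among which the JQ1 library was the lowest. The JQ1 ratio of E2F3 was -0.60 (-0.76, -0.44) without PHA and 1.20 (1.09, 1.31) with PHA, a level 2.29-fold that of the DMSO + PHA library. PHA gave a ratio of 0.28 (0.15, 0.42) in DMSO-treated cells and 2.08 (1.95, 2.22) in JQ1-treated cells, a level 4.23-fold that of the JQ1 library. From the highest ratio down, E2F3 was number 24 of the 11503 genes for JQ1 + PHA against JQ1 and number 285 for JQ1 + PHA against DMSO + PHA. It was 1 of 15 genes (0.13%) at least 2-fold higher in the JQ1 + PHA library than in each of the other libraries. Reads of the intronic transcript E2F3-IT1, listed inside the gene, numbered 1 to 3 per library. The 2 genes with the most similar pattern over the 4 libraries, by the root mean square difference of centred log2 FPKM, were CYP26B1 (difference 0.15) and SH3BP1 (difference 0.16). CYP26B1, an enzyme that degrades retinoic acid, had 121, 107, 157 and 380 counts in the DMSO, JQ1, DMSO + PHA and JQ1 + PHA libraries, and SH3BP1 had 165, 98, 224 and 586 counts. In FPKM, CYP26B1 had 0.722, 0.611, 0.896 and 2.29. It thus passed the filter, a mean of at least 1 FPKM, only through the JQ1 + PHA library, where it is high.

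The repressors with pocket-protein binding, E2F4 and E2F5, were lower with JQ1. E2F4 (ENSG00000205250, chromosome 16, 67192169 to 67198918, plus strand) had 1431 (DMSO), 975 (JQ1), 1217 (DMSO + PHA) and 873 (JQ1 + PHA) counts, or 8.18, 5.33, 6.65 and 5.04 FPKM. Its level was highest in the DMSO library and lowest in the JQ1 + PHA library, with JQ1 ratios of -0.62 (-0.74, -0.50) without PHA and -0.40 (-0.53, -0.27) with PHA. PHA alone gave a ratio of -0.30 (-0.41, -0.19) for E2F4.

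E2F5 (ENSG00000133740, chromosome 8, 85177225 to 85217158, plus strand) had 654 (DMSO), 440 (JQ1), 713 (DMSO + PHA) and 553 (JQ1 + PHA) counts, or 3.46, 2.23, 3.61 and 2.96 FPKM. The lowest level was that of the JQ1 library. JQ1 ratios of E2F5 were -0.64 (-0.81, -0.46) without PHA and -0.29 (-0.45, -0.12) with PHA, and the PHA ratio was 0.41 (0.23, 0.59) in JQ1-treated cells. The 3′ end of E2F5 overlaps C8orf59, which had 808, 718, 837 and 590 counts in the order given, 107% to 163% of the count of E2F5. How reads on the overlap were assigned was not stated, so the values of E2F5 are uncertain.

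E2F6, which represses without pocket proteins, was the member with the lowest FPKM in every library, although E2F5 was lowest per exon base of GENCODE in the JQ1 and DMSO + PHA libraries. Its counts (ENSG00000169016, chromosome 2, 11444375 to 11466177, minus strand) were 408 (DMSO), 364 (JQ1), 507 (DMSO + PHA) and 359 (JQ1 + PHA), or 2.38, 2.03, 2.82 and 2.11 FPKM. The DMSO + PHA library was the highest. JQ1 ratios of E2F6 were -0.23 (-0.44, -0.02) without PHA and -0.42 (-0.62, -0.22) with PHA, and its PHA ratio was 0.25 (0.06, 0.44) in DMSO-treated cells. E2F6P1, the pseudogene of a member with the most reads, had 4 to 11 counts.

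Of the atypical repressors, E2F7 was lowest with PHA alone and E2F8 was lower in both JQ1 libraries. E2F7 (ENSG00000165891, chromosome 12, 77021247 to 77065580, minus strand) had 2018 (DMSO), 1950 (JQ1), 1608 (DMSO + PHA) and 1892 (JQ1 + PHA) counts, or 9.53, 8.81, 7.26 and 9.03 FPKM, the DMSO + PHA library being the lowest. Its JQ1 ratio was -0.11 (-0.20, -0.02) without PHA and 0.31 (0.22, 0.41) with PHA, and the PHA ratio in DMSO-treated cells was -0.39 (-0.49, -0.30). E2F8 (ENSG00000129173, chromosome 11, 19224063 to 19241620, minus strand) had 1010 (DMSO), 722 (JQ1), 1138 (DMSO + PHA) and 766 (JQ1 + PHA) counts, or 9.11, 6.23, 9.81 and 6.98 FPKM. Both JQ1 libraries lay below both DMSO libraries for E2F8, with JQ1 ratios of -0.55 (-0.69, -0.41) without PHA and -0.49 (-0.62, -0.36) with PHA. Its PHA ratio was 0.17 (0.02, 0.31) in JQ1-treated cells, and in DMSO-treated cells it included 0.

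The pocket proteins were higher with JQ1, in contrast to most E2Fs. RB1 (ENSG00000139687, chromosome 13, 48303751 to 48481986, plus strand) had 9698 (DMSO), 17765 (JQ1), 14416 (DMSO + PHA) and 18324 (JQ1 + PHA) counts, or 64.7, 113, 92.0 and 124 FPKM. The DMSO library was the lowest and both JQ1 libraries were the highest. The JQ1 ratio of RB1 was 0.81 (0.77, 0.84) without PHA, 1.75-fold in FPKM, and 0.43 (0.39, 0.46) with PHA, 1.34-fold. PHA gave 0.51 (0.47, 0.54) in DMSO-treated cells and 0.12 (0.09, 0.15) in JQ1-treated cells. LPAR6, which lies inside RB1 on the other strand, had 98, 350, 68 and 305 counts in the order given, at most 1.97% of the count of RB1.

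RBL1 (ENSG00000080839, chromosome 20, 36996349 to 37095995, minus strand) had 1491 (DMSO), 2135 (JQ1), 1507 (DMSO + PHA) and 2026 (JQ1 + PHA) counts, or 11.9, 16.4, 11.5 and 16.4 FPKM. The JQ1 libraries were close to each other and above the DMSO libraries. Its JQ1 ratio was 0.45 (0.36, 0.55) without PHA and 0.51 (0.41, 0.60) with PHA, and both PHA ratios of RBL1 included 0.

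**Figure D2:**
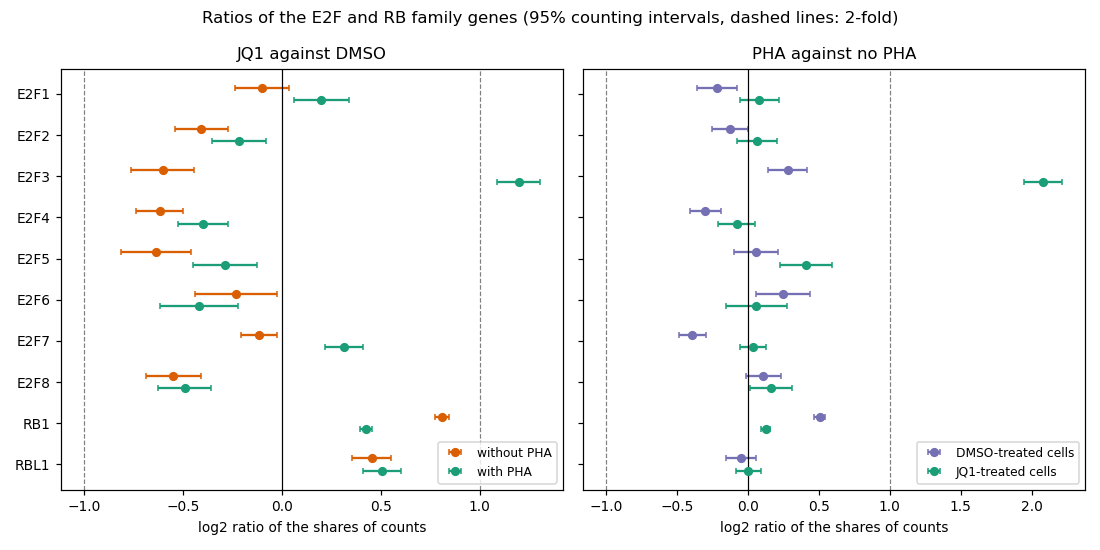
Log2 ratios of the share of counts (horizontal axes) for the 10 members, JQ1 against DMSO on the left and PHA against no PHA on the right, with 95% counting intervals and dashed lines at 2-fold. E2F3 is the member beyond 2-fold, at 1.20 for JQ1 with PHA and at 2.08 for PHA with JQ1, and RB1 and RBL1 lie to the right of 0 in both JQ1 comparisons.

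Counted over the members, JQ1 against DMSO gave 0 of 10 past 2-fold in either direction, where 13.9% of all tested genes passed. Beyond counting error, 2 members were higher (36.9% of all tested genes were) and 7 were lower (38.7% of all). The higher ones were RB1 and RBL1, and E2F1 was the member whose interval included 0. After scaling by TMM or DESeq2 size factors, the intervals of E2F6 and E2F7 included 0 as well, which left 5 lower. The median log2 FPKM ratio was -0.31 over the members, -0.40 over the activators and -0.54 over the repressors, beside -0.01 over all tested genes. In the presence of PHA, 1 of 10 members, E2F3, passed 2-fold (11.7% of all), 5 were higher beyond counting error (34.6% of all) and 5 were lower (38.2% of all). E2F1, E2F3, E2F7, RB1 and RBL1 were the higher ones, and the median was 0.20 over the activators and -0.39 over the repressors, beside -0.02 over all tested genes.

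PHA in DMSO-treated cells gave 0 of 10 members past 2-fold (3.29% of all), with 3 higher beyond counting error (24.7% of all) and 3 lower (25.1% of all). E2F3, E2F6 and RB1 were higher, and E2F1, E2F4 and E2F7 were lower. In JQ1-treated cells, PHA gave 1 of 10 past 2-fold, again E2F3 (2.07% of all), with 4 higher (15.6% of all) and 0 lower (15.7% of all), the others being E2F5, E2F8 and RB1.

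The JQ1 ratio differed between cells with and without PHA for several members. The difference of the log2 ratios, with PHA minus without, is the same number as the difference of the PHA ratios with and without JQ1. It was 1.80 (1.61, 1.99) for E2F3, number 69 from the highest among the 11481 tested genes with a count in every library. For E2F7 it was 0.43 (0.30, 0.56), for E2F5 0.35 (0.11, 0.59), for E2F1 0.30 (0.11, 0.49) and for E2F4 0.22 (0.05, 0.39). RB1 went the other way, with -0.38 (-0.43, -0.33). The difference was 0.19 (0.00, 0.38) for E2F2, at the edge of counting error, and the intervals of E2F6, E2F8 and RBL1 included 0. Counting E2F2, the interval excluded 0 for 7 of the 10 members, beside 42% of the 11481 genes.

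**Figure D3:**
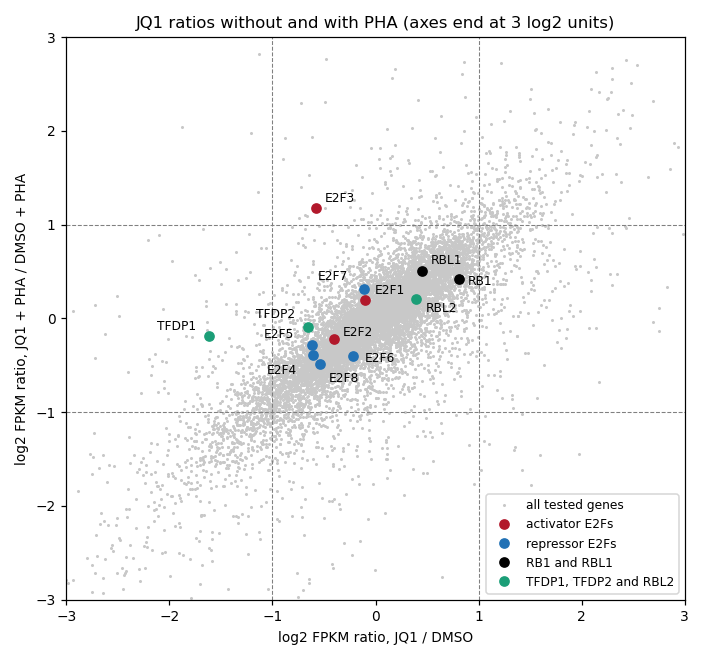
Log2 FPKM ratio of JQ1 to DMSO without PHA (horizontal axis) and with PHA (vertical axis) for all tested genes in grey and for the members, TFDP1, TFDP2 and RBL2 in colour, with dashed lines at 2-fold and axes ending at 3. E2F1, E2F3 and E2F7 lie below 0 without PHA and above 0 with PHA, E2F3 alone among the members past 2-fold, while RB1 and RBL1 lie above 0 on both axes.

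The activators were set against the repressors by summing FPKM within each class. The activator sum was 31.6 (DMSO), 26.9 (JQ1), 28.9 (DMSO + PHA) and 35.4 (JQ1 + PHA) FPKM. The repressor sum was 32.7, 24.6, 30.2 and 26.1 FPKM in the same order. Activators over repressors gave 0.968 (0.919, 1.02) for DMSO alone and 1.09 (1.03, 1.16) for JQ1 alone. In the presence of PHA, the ratio was 0.958 (0.910, 1.01) in DMSO-treated and 1.35 (1.29, 1.42) in JQ1-treated cells. The ratio was therefore highest with JQ1 + PHA, and the DMSO libraries with and without PHA overlapped. Without E2F3 among the activators, it was 0.864, 1.0, 0.822 and 0.994, so the JQ1 and JQ1 + PHA libraries were then close, and both still exceeded their DMSO counterpart. Per exon base of GENCODE, with all activators, the ratio was 0.572, 0.626, 0.603 and 0.983, so its size depended on the length basis while the JQ1 + PHA library was still the highest. Without E2F7 and E2F8 among the repressors, it was 2.26, 2.81, 2.21 and 3.50. In summed counts it was 0.491, 0.499, 0.539 and 0.872, so that the JQ1 library hardly differed from the DMSO library and lay below the DMSO + PHA library. Of the summed FPKM of the 8 E2Fs, E2F3 took 5.26%, 4.32%, 6.95% and 15.3% in the order given, and E2F1 took between 27.3% and 34%.

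RB1 made up most of the pocket-protein RNA. Of the summed FPKM of RB1, RBL1 and RBL2, RB1 took 72.7% (DMSO), 77.7% (JQ1), 78.5% (DMSO + PHA) and 79.3% (JQ1 + PHA). RB1 and RBL1 together had 1.19 (DMSO), 2.52 (JQ1), 1.75 (DMSO + PHA) and 2.28 (JQ1 + PHA) times the summed FPKM of the E2Fs. This ratio was higher in either JQ1 library than in either DMSO library, and so it was per exon base of GENCODE, with 0.954, 2.09, 1.40 and 1.77. The size of these last values depends on the exon bases of RB1, whose gene model in GENCODE is longer than the deposited one.

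The partners of the family were examined next, from lists of the pathway. Of the DP partners and RBL2 (p130), the remaining pocket protein, 3 of 4 passed the filter. TFDP1, the main DP partner, had 5512 (DMSO), 1876 (JQ1), 3235 (DMSO + PHA) and 2689 (JQ1 + PHA) counts, or 52.0, 16.9, 29.1 and 25.6 FPKM. It was highest in the DMSO library and 3.07-fold lower in the JQ1 library, a log2 ratio of -1.62 (-1.70, -1.54), while the JQ1 ratio with PHA was -0.19 (-0.26, -0.11). TFDP2, another DP partner, had 22.6, 14.3, 12.6 and 11.8 FPKM, with JQ1 ratios of -0.66 (-0.71, -0.62) without PHA and -0.10 (-0.15, -0.04) with PHA. PHA in DMSO-treated cells gave ratios of -0.83 (-0.90, -0.77) for TFDP1 and -0.84 (-0.88, -0.79) for TFDP2. In JQ1-treated cells, PHA gave 0.60 (0.51, 0.68) for TFDP1 and -0.27 (-0.32, -0.22) for TFDP2. RBL2 was higher with JQ1, like RB1 and RBL1, at 12.3, 16.3, 13.6 and 15.8 FPKM and JQ1 ratios of 0.40 (0.33, 0.47) and 0.21 (0.14, 0.28). TFDP1 was thus the gene of this list past 2-fold with JQ1, where 13.9% of all tested genes passed. None passed with JQ1 in the presence of PHA, where 11.7% of all did. Median log2 FPKM ratios of the list were -0.66 and -0.09.

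MuvB is the complex that joins RBL1 or RBL2 and E2F4 to repress, and MYBL2 or FOXM1 to activate. The list held 8 genes, those of the MuvB core and the partners MYBL1, MYBL2 and FOXM1. Of these, 7 passed the filter, with medians of -0.10 for JQ1 and -0.17 for JQ1 with PHA. With JQ1 alone, 0 passed 2-fold (13.9% of all tested genes), and with JQ1 and PHA 1 was higher and 1 lower (11.7% in either direction). With a pseudocount of 1, or at a mean of at least 5 FPKM, this count of 2 became 1. MYBL1 (A-MYB) had 4.14 and 3.21 FPKM in the DMSO and DMSO + PHA libraries and 8.02 and 7.96 FPKM in the JQ1 and JQ1 + PHA libraries, with ratios of 0.95 (0.82, 1.09) and 1.31 (1.17, 1.45). LIN54, the DNA-binding subunit, had ratios of 0.55 (0.45, 0.65) and 0.59 (0.49, 0.69), and LIN9 had -0.37 (-0.53, -0.21) and -0.57 (-0.73, -0.40). LIN52, which was chosen after its values were seen because it made up the count of lower genes, had 453, 510, 487 and 181 counts, the lowest with JQ1 + PHA. MYBL2 (B-MYB), itself an E2F target, had 76.3, 59.5, 71.2 and 68.9 FPKM, and FOXM1 13.2, 11.1, 12.4 and 11.1 FPKM.

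Among the kinases, cyclins and inhibitors that act on pocket proteins in G1, 11 of 16 passed the filter, with medians of 0.32 for JQ1 and 0.16 for JQ1 with PHA. In both comparisons, 2 were past 2-fold higher and 1 lower, beside 13.9% and 11.7% of all tested genes in either direction. CCND2 (cyclin D2) was the lower one, with 663 and 531 counts in the DMSO and DMSO + PHA libraries and 99 and 101 in the JQ1 and JQ1 + PHA libraries, 7.0-fold and 4.97-fold lower in FPKM. The inhibitors CDKN2D (p19INK4d) and CDKN1B (p27) were the higher ones, CDKN2D at 4.11 and 3.99 FPKM without JQ1 and 12.8 and 13.2 FPKM with it, and CDKN1B at 13.7 and 14.8 FPKM without and 36.2 and 34.7 FPKM with it. CDK6, the cyclin D partner, was abundant in every library at 280 to 353 FPKM. CCND3 (cyclin D3) had 1.62, 2.56, 2.43 and 2.73 FPKM, and CCNE2 (cyclin E2) 9.09, 12.5, 9.50 and 12.1 FPKM in the order given.

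The G1/S genes that E2Fs are known to regulate mostly lay a little lower with JQ1. All 41 listed passed the filter, and with JQ1 8 were higher and 28 lower beyond counting error (36.9% and 38.7% of all tested genes), with a median of -0.27. In the presence of PHA, 12 were higher and 18 lower (34.6% and 38.2% of all), with a median of -0.02, near that of all tested genes. RRM2, a subunit of ribonucleotide reductase, was the 1 of 41 past 2-fold in either comparison (13.9% and 11.7% of all tested genes), with 33.2 and 30.9 FPKM without JQ1 and 66.6 and 69.7 FPKM with it. Without PHA its fold was 2.01, and with a pseudocount of 1, 0 of the 41 passed. MCM7, of the replicative helicase, had JQ1 ratios of -0.65 (-0.69, -0.60) and -0.47 (-0.52, -0.43).

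The G2/M genes lay on the other side. Of 20 listed and tested, 15 were higher beyond counting error and 2 lower in either JQ1 comparison, none past 2-fold, beside 36.9% and 38.7% of all tested genes without PHA and 34.6% and 38.2% with it. The medians were 0.16 and 0.26, without and with PHA. The motor protein CENPE had 22.9 and 25.6 FPKM without JQ1 and 44.1 and 43.6 FPKM with it, and KIF11, a spindle motor, had 75.8 and 76.6 FPKM without and 127 FPKM in both libraries with it. CENPF, of the kinetochore, had JQ1 ratios of 0.74 (0.71, 0.76) and 0.53 (0.50, 0.56). Whether the values of the E2F and RB genes moved with the phase of the cells was not tested.

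**Figure D4:**
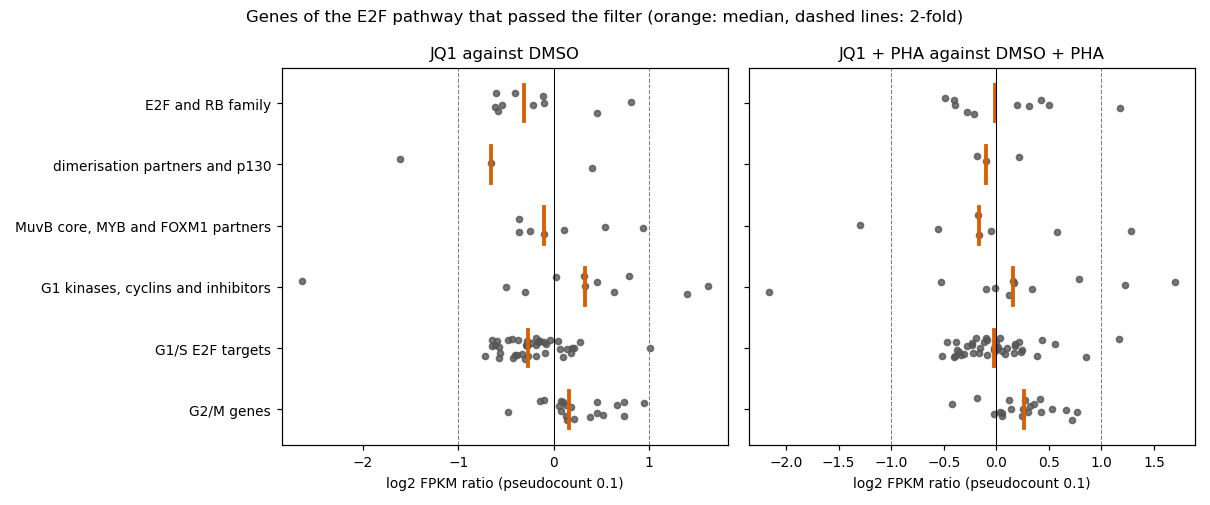
Log2 FPKM ratios with a pseudocount of 0.1 (horizontal axes) of the tested members and of the genes of 5 pathway lists, 1 point per gene with the median in orange and dashed lines at 2-fold, for JQ1 against DMSO and for JQ1 + PHA against DMSO + PHA. The median of the G1/S genes lies at -0.27 and -0.02 and that of the G2/M genes at 0.16 and 0.26.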

How the data were processed

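RNA was extracted with TRIzol from Jurkat cells of the 4 conditions and sequenced on an Illumina HiSeq2500. The labels and the methods of the study name different VAHTS library kits, and the treatment of strand in counting was not given in the sources used here. The authors aligned reads with Hisat2 2.0.4 to GRCh38, and the submitters' processing notes also name TopHat2 2.0.9 and Cufflinks 2.1.1 without a role. The deposited counts are whole reads per gene without normalization. The deposited FPKM values equal the counts per length of gene and per total count, as a check of the files showed. The counting program and annotation release were not given in the sources used here.

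Groups were taken from the labels, with 1 library each. Genes with a mean of at least 1 FPKM (11503 of 50868) were tested for a 2-fold difference in FPKM after adding a pseudocount of 0.1. Intervals of ratios of count shares are exact 95% (Clopper-Pearson) and cover counting error only, as reads without molecular identifiers are not independent molecules. Intervals of differences and of class ratios were computed from the Poisson error of the counts. The members and lists were chosen with earlier results of these data known. Named were all members, the 3 genes of each list with the largest absolute JQ1 ratio, TFDP1, TFDP2, RBL2, MYBL2, FOXM1, CCND3, CDK6, CCNE2, HEXIM1, and for a member past 2-fold the 2 genes nearest in pattern. Alternatives were the pseudocount, the filter, the fold threshold, the class definitions, and scaling of counts (TMM of edgeR, size factors of DESeq2); the GENCODE 44 exon bases and the class without E2F3 were added after seeing the data, as were the counts of intervals under those scalings. Results on some named genes are not reported here. The 2-fold calls and the counting intervals of ratios were tested on a simulated pair of libraries with counting noise alone. The other steps were not tested in this way. Tools were Python 3.11.15, numpy 2.4.6, pandas 2.3.3, scipy 1.17.1, matplotlib 3.10.9, and R 4.3.3. Of edgeR 4.0.16 and DESeq2 1.42.0, scaling factors alone were used.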

Additional observations from a re-analysis of the deposited data

Results flagged for a closer look

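For several genes, the ratio lay on opposite sides of 0 beyond counting error in the cells with and without the other agent. Only the members and those genes named from the lists whose results are reported were searched for this, so other genes of the lists may do the same. With 1 library per condition, none of these differences was tested against replicates, and the values are differences of log2 ratios of count shares. For the JQ1 ratio, with PHA minus without, the difference was 1.80 for E2F3 and 0.43 for E2F7. For the PHA ratio, with JQ1 minus without, it was 1.43 for TFDP1, 0.31 for MYBL2, 0.17 for RRM2, 0.17 for MCM7 and -0.21 for CENPF. Under TMM or DESeq2 scaling, the interval of E2F7 without PHA included 0, so its opposite directions hold for the scaling to total counts alone.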

How the results depend on the processing

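No paired analysis was possible because each condition has 1 library, and no library could be left out for the same reason. Of 200 member ratios (40 ratios under 5 settings), 194 stayed within the counting interval of the ratio first given and 6 fell outside it. A reversal was looked for only in ratios past 2-fold, those of E2F3, and 0 reversed. Scaling by TMM or DESeq2 size factors gave 5 members lower beyond counting error with JQ1 (7 by total counts) and 4 with PHA in DMSO-treated cells (3 by total counts), and moved no other such count. The shares of all tested genes under these scalings were not computed. At a 1.5-fold threshold, 3 of the 10 members (0 at 2-fold) passed with JQ1 against DMSO, where 3924 of the 11503 tested genes did. With a minimum mean of 5 FPKM, which E2F3 does not reach, 0 members passed for JQ1 + PHA against DMSO + PHA and 0 against JQ1. Activators over repressors, in the order DMSO, JQ1, DMSO + PHA, JQ1 + PHA, was 2.26, 2.81, 2.21 and 3.50 without E2F7 and E2F8, 1.04, 1.19, 1.06 and 1.47 without E2F6, and 0.491, 0.499, 0.539 and 0.872 in summed counts. Per exon base of GENCODE it was 0.572, 0.626, 0.603 and 0.983, and without E2F3 0.864, 1.0, 0.822 and 0.994; this pair of settings was chosen after seeing the data. Of all genes, 1595 passed 2-fold with JQ1, against 881 with a pseudocount of 1, 3739 at a mean of at least 0.1 FPKM, 4742 without a filter, 570 at a mean of at least 5 FPKM and 3924 at 1.5-fold. The same settings gave, against 1344 for JQ1 with PHA, 754, 3416, 4500, 467 and 3388, against 378 for PHA in DMSO-treated cells, 189, 1617, 2588, 104 and 1083, and against 238 for PHA in JQ1-treated cells, 114, 1241, 2058, 68 and 648. Each interval depends on the counts of its own gene. Among the members, the intervals were widest for E2F6, which had the fewest counts, 359 to 507 per library.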
